A study of Drosophila melanogaster with 8 samples.

Results

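In DHR39 mutant flies, 36 noncoding genes that controls held at a low level were nearly without reads. They were chosen by their counts: a biotype other than protein-coding, a mean of at least 1 CPM (counts scaled by the library total to 1000000) over the 5 controls, and under 0.25 CPM in each of the 3 DHR39 libraries. The table held 14865 genes, 2129 of them noncoding, and 915 noncoding genes reached the control level, so the 36 make up 3.93% of those that could have been chosen. Among 11686 protein-coding genes with a control mean of at least 1 CPM, 9 met the same limits (0.077%). The noncoding and protein-coding sets share this minimum but were not matched for level. A gene with a higher control mean needs a larger fall to come under 0.25 CPM, so these shares are not compared. The annotation calls 35 of the 36 ncRNA and 1, CR43158, a pseudogene. Because the same contrast chose them, their difference between the groups is given as a description and not as a test.

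The RNA came from whole adult Drosophila melanogaster at day 8 of adulthood, reared on 8% yeast and 9% sugar. The controls carry the genotype w1118 and the mutants the genotype DHR393.48 in the deposited sample sheet, and neither the lesion nor the strain background of the mutant is described in the labels. The control libraries also belong to another series, and all 8 libraries carry the same flow-cell name. The sex of the flies is not stated, although the title of the series concerns male fertility and the accessory gland, and the labels name no separate cultures for the replicates. The p-values below therefore reflect variation between libraries that may be technical.

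Hr39 encodes DHR39, a nuclear receptor, which is a protein that binds DNA and sets the transcription of other genes. Accessory glands are the male organs that make much of the seminal fluid, including the Acp proteins and serine protease inhibitors. Long noncoding RNAs are transcripts with no long reading frame. Many carry a poly(A) tail, as messenger RNA does, and can therefore enter poly(A)-selected libraries, and most are present at low levels. The 36 genes here have only CR numbers as names, and no function is given for any of them in the sources used here.

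The targeted transcript was measured first. Hr39 (2L, FBgn0261239) read 37.5, 32.9, 32.8, 35.4 and 35.6 CPM in controls 1 to 5 and 26.3, 28.1 and 31.7 CPM in DHR39 libraries 1 to 3. Every DHR39 library was below every control, and the log2 fold change was -0.42 ± 0.10 (SE; edgeR quasi-likelihood test, Benjamini-Hochberg adjusted p = 0.0119). The call was lost when counts were scaled by library totals (adjusted p = 0.0593), without DHR39 replicate 1 (0.0515) and without DHR39 replicate 2 (0.0508). Library totals ran from 16072497 to 19935574 counts, so 3 counts in 1 library equal 0.150 to 0.187 CPM, and the limit of 0.25 CPM equals 4.02 to 4.98 counts. At that depth, a level of 0 in a DHR39 library shows that the transcript was not detected, not that it was absent.

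Summed over the 36 genes, controls 1 to 5 held 57.2, 66.0, 99.0, 69.2 and 72.2 CPM, and DHR39 libraries 1 to 3 held 2.99, 2.31 and 2.41 CPM. In counts, the controls had 1055, 1210, 1718, 1321 and 1261, and the mutants 48, 46 and 39. In the mutants, 16, 17 and 17 of the 36 genes had no count at all, whereas control 1 lacked 1 gene and the other controls lacked none. Over the 3 mutant libraries together, 10 genes had no count, 8 had 1 to 3, and 18 had more than 3, with at most 10. Control means spanned 1.01 to 7.01 CPM with a median of 1.62 CPM: 22 genes lay between 1 and 2 CPM, 12 between 2 and 4 CPM, and 2 above 4 CPM. In whole flies, fewer cells that make a transcript and less of it in each cell cannot be told apart.

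**Figure D1:**
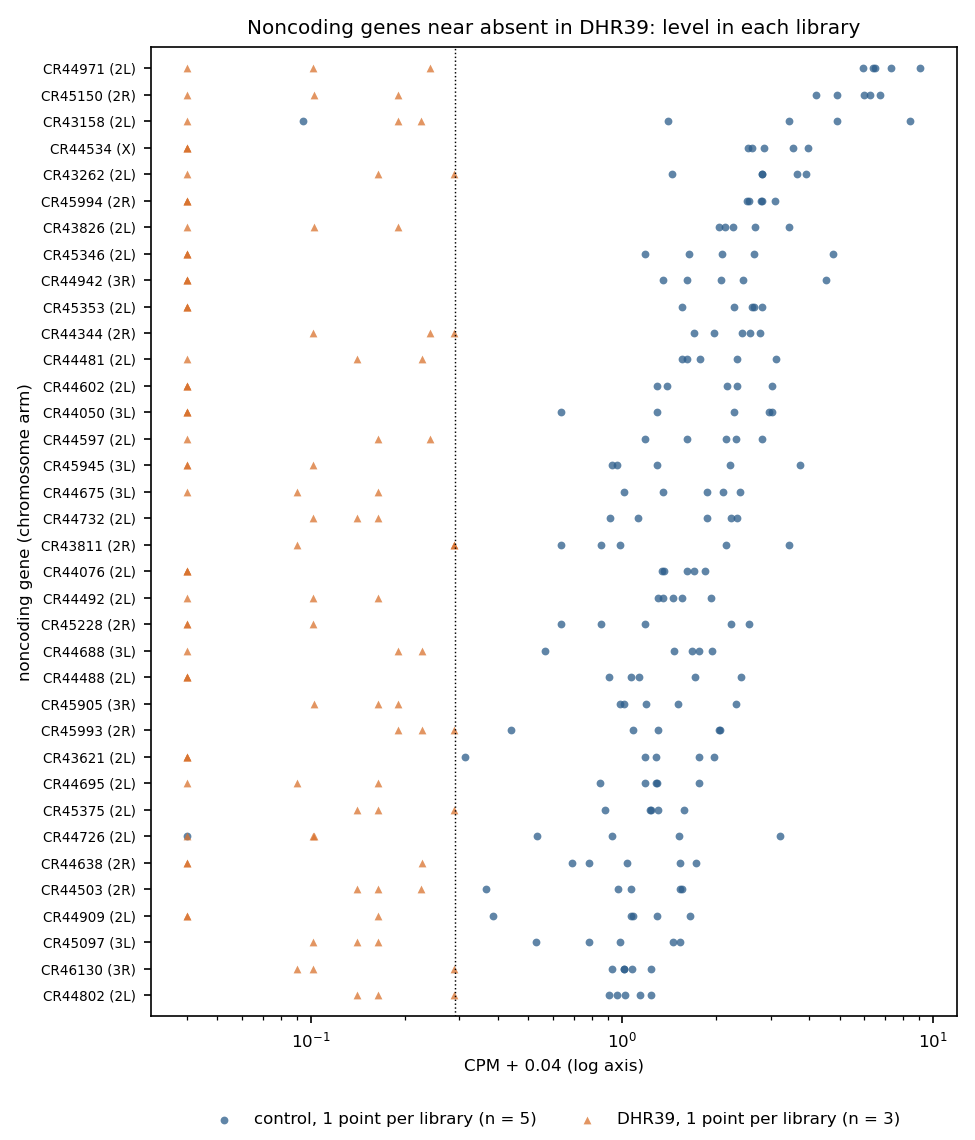
Level of each of the 36 noncoding genes in each library, as CPM plus 0.04 on a log axis so that a level of 0 can be drawn; circles are the 5 controls, triangles the 3 DHR39 libraries, and the dotted line marks 0.25 CPM with the same 0.04 added. The genes are ordered by control mean, from 7.01 CPM at the top to 1.01 CPM at the bottom, and a circle reaches the triangles only for CR43158 and CR44726.

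The 2 most abundant genes stood well above the others. CR44971 (FBgn0266306), a plus-strand ncRNA of 2 exons at 2L from 12841517 to 12841895, read 7.27, 6.38, 9.05, 6.44 and 5.89 CPM in controls 1 to 5 and 0, 0.201 and 0.0618 CPM in the mutants. CR45150 (FBgn0266643), a minus-strand ncRNA of 1 exon at 2R from 21604195 to 21604786, read 5.97, 4.15, 6.69, 4.87 and 6.24 CPM in the controls and 0.0622, 0.150 and 0 CPM in the mutants. For both, the controls varied by less than 2-fold among themselves and none came near a mutant library. The ratio of control to DHR39 was 73.0 for CR44971 (exact 95% binomial interval 31.1 to 226) and 72.5 for CR45150 (28.2 to 267). These intervals, like the floors below, cover counting error only.

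The pseudogene CR43158 (FBgn0262688; 2L from 20639015 to 20639578, plus strand) had the next highest control mean, 3.61 ± 3.24 CPM (SD, n = 5), but its controls did not form a tight group. Controls 1 to 5 read 0.0543, 1.36, 8.36, 3.40 and 4.86 CPM, and the mutants 0, 0.150 and 0.185 CPM. Control 1 was below 2 of the mutant libraries, so the groups overlapped. CR44726 (2L) was the only other gene whose groups overlapped, with 0, 0.491, 3.17, 0.890 and 1.49 CPM in the controls and 0.0622, 0 and 0.0618 CPM in the mutants. For the other 34, every control was above every mutant library, as the choice of genes makes likely; over all 12601 genes with a control mean of at least 1 CPM, 8.57% showed this order. In 15 of the 36, every single control reached 1 CPM.

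Of the 10 highest genes, 5 had no count in any mutant library. CR44534 (FBgn0265727), the only one of the 36 on the X chromosome (9314685 to 9315171, plus strand), read 2.50, 3.93, 2.83, 3.51 and 2.58 CPM in the controls. With a floor of 3 counts over the mutant group, it was at least 53.5-fold higher in the controls. CR45994 (FBgn0267656; 2R from 16153906 to 16154551, plus strand) read 2.77, 3.05, 2.48, 2.51 and 2.75 CPM, at least 47.2-fold higher. Its controls were the tightest of the 36, with a coefficient of variation of 8.55%.

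The other 3 of these 5 varied more among controls. CR45346 (FBgn0266885; 2L from 1214649 to 1215293, minus strand) read 2.06, 1.15, 4.73, 2.62 and 1.602 CPM and was at least 42.0-fold higher in the controls. CR44942 (FBgn0266247; 3R from 12618876 to 12619428, minus strand) read 1.57, 1.31, 4.50, 2.04 and 2.40 CPM, at least 40.7-fold higher. Both were highest in control 3. CR45353 (FBgn0266893; 2L from 15468944 to 15469527, minus strand) read 1.52, 2.62, 2.77, 2.25 and 2.58 CPM, at least 40.7-fold higher, and was lowest in control 1.

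The remaining 2 of the 10 kept a few mutant counts. CR43262 (FBgn0262943; 2L from 8242055 to 8242435, plus strand) read 1.41, 2.78, 3.86, 2.78 and 3.61 CPM in the controls and 0.124, 0 and 0.247 CPM in the mutants, a ratio of 24.9 (11.3 to 68.6). CR43826 (FBgn0264374; 2L from 16003756 to 16004292, minus strand) read 2.01, 2.24, 3.40, 2.09 and 2.63 CPM in the controls and 0.0622, 0.150 and 0 CPM in the mutants, a ratio of 32.1 (12.4 to 119). Over all 36, the genes without mutant counts were at least 22.1- to 53.5-fold higher in the controls, and the ratios of the others ran from 6.62 to 91.5 with a median of 20.3. The ratio of 91.5, for CR45945 on 3L, rests on 1 mutant count and has an interval of 16.2 to 3637.

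The limits of 1 and 0.25 CPM fall in a continuous range of values. Just inside the control limit were CR44802, CR46130 and CR45097 with 1.01, 1.02 and 1.02 CPM, and just outside it CR44798, CR45924 and CR46247 with 0.918, 0.913 and 0.895 CPM. CR45924 had no count in any mutant library. Just inside the mutant limit were CR43811, CR46130 and CR44802, whose highest mutant library read 0.249 CPM. The first value outside was 0.251 CPM, or 5 counts, shared by 4 genes. Of these, CR33319 and CR43808, both on 2L, had control means of 12.5 ± 9.09 and 7.32 ± 4.17 CPM (SD, n = 5), above every one of the 36, and CR33319 is named after its values were seen.

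The controls differed among themselves in a way that many of the 36 shared. Control 3 was the highest control for 16 genes and control 1 the lowest for 16, whereas control 1 was the highest for 2. The coefficient of variation over the controls had a median of 36.7% and reached 101% for CR44726. The highest control was above the lowest by a median ratio of 2.42, and 12 genes stayed within 2-fold. The summed level without CR43158 and CR44726 was 57.2, 64.2, 87.5, 64.9 and 65.8 CPM in controls 1 to 5, so control 3 remained the highest and control 1 the lowest.

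Markers of the accessory gland moved with these genes. Their summed level was 4367, 5624, 8506, 6127 and 6584 CPM in controls 1 to 5 and 1817, 1319 and 1450 CPM in the mutants. The 5 controls therefore stood in the same order by this sum as by the summed level of the 36 noncoding genes, from control 1 through 2, 4 and 5 to control 3. Control 3 was also the highest control for 2 other sums, in which control 2 was the lowest. Other noncoding genes with a control mean of at least 1 CPM summed to 9646, 9501, 11357.5, 10944 and 10292.5 CPM in controls 1 to 5. The testis markers below summed to 5452, 5114, 7056, 5743 and 5399 CPM. Control 3 was not the highest for the ovary, gut, muscle or neuron lists. Of the 12 accessory gland markers in the table, 11 fell and 1, Acp26Ab, rose, with a median log2 fold change of -2.39 (edgeR, adjusted p under 0.05; over all 13506 genes tested, 10.7% fell, 6.58% rose and the median was -0.0044). No marker was at 0. The part of the accessory gland in the loss of the noncoding transcripts was not tested.

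Markers of the testis, which expresses many noncoding RNAs in flies, overlapped between the groups. Their sum ran from 5114 to 7056 CPM in the controls and from 5940 to 7105 CPM in the mutants, and none of 18 fell while Mst84Db rose (1 fell with DESeq2, with the replicate block and without control 2). Markers of ovary and female fat body, of which 8 of 14 were in the table, summed to 15.1 to 21.3 CPM in the controls and 14.8 to 20.9 CPM in the mutants, with 4 of the 8 (Vm26Ab, Cp18, Cp19 and Fcp3C) under 1 CPM in controls. None of this list was called, except that 1 fell without DHR39 replicate 2. Outside the reproductive organs, 3 of 4 gut markers fell (4796 to 6169 CPM in controls, 2757 to 3739 CPM in mutants), as did 2 of 3 muscle markers (2615 to 3091 and 2060 to 2243 CPM). Only 1 of the 3 fell with library totals, without DHR39 replicate 2 or 3, and without control 1, 2, 3 or 5. None of 4 neuronal markers was called. The part of the gut and muscle markers in the result was not tested either.

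The chromosome arm with the most of the 36 genes was 2L, which carries Hr39. It held 19 of them, or 8.33% of its 228 noncoding genes at the control level. Arm 2R, the other arm of the same chromosome, held 8 of 155 (5.16%). Arm 3L held 5 of 194 (2.58%), 3R 3 of 231 (1.30%) and X 1 of 92 (1.09%), while chromosome 4 held none of 12 and Y none of 2. Outside 2L, the share was 17 of 687 (2.47%). Protein-coding genes that met the same limits numbered 6 of 2225 on 2L and 1 each on 2R, 3L and 3R. The choice of genes used these counts, so the shares by arm are not tested. The labels do not say whether mutant and control share the rest of chromosome 2, so the lesion in Hr39 and other differences between the strains cannot be told apart.

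**Figure D2:**
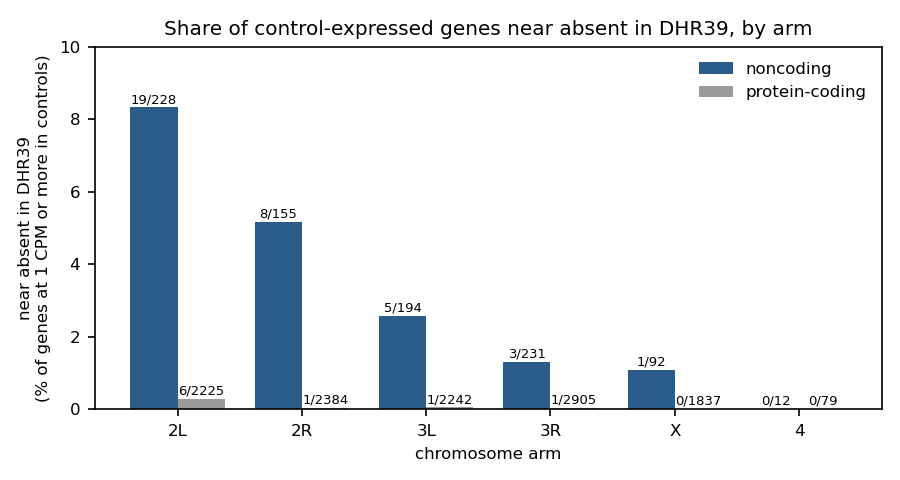
Percentage of genes with a control mean of at least 1 CPM that were under 0.25 CPM in every DHR39 library, by chromosome arm, for noncoding and protein-coding genes; the numbers above the bars are genes near absent over genes at the control level. The noncoding share falls from 8.33% on 2L and 5.16% on 2R to 1.09% on X, and the protein-coding share stays under 0.3% on every arm. The noncoding and protein-coding sets were not matched for level.

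On 2L, the 19 genes were spread along the arm. Their distance to the start of Hr39 ran from 0.598 to 20.02 Mb with a median of 8.40 Mb, and the median over all 228 noncoding genes of the arm at the control level was 9.18 Mb. Within 5 Mb, 4 of 49 were near absent in the mutants (8.16%), between 5 and 10 Mb 8 of 60 (13.3%), between 10 and 15 Mb 5 of 39 (12.8%) and between 15 and 25 Mb 2 of 62 (3.23%). None of 18 on the other side of the start of Hr39 was near absent. The nearest were CR43158 and CR44909, which lie 12809 bp from each other.

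**Figure D3:**
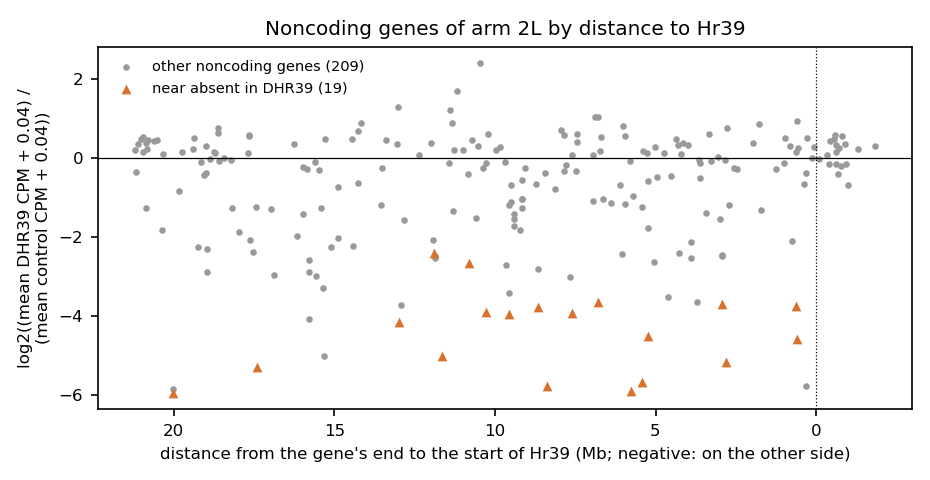
The 228 noncoding genes of arm 2L with a control mean of at least 1 CPM, by distance to the start of Hr39 in Mb (horizontal, negative on the other side) and by the log2 ratio of mean DHR39 to mean control CPM, each with 0.04 added (vertical); triangles are the 19 near-absent genes. The triangles lie between 0.598 and 20.02 Mb. The 2 lowest circles are CR33319 and CR43263, named after their values were seen. Their highest mutant library read 0.251 CPM, just outside the limit, and 0.373 CPM, further outside it.

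The 36 genes had a short total exonic length. Their exonic length ran from 263 to 3083 bases with a median of 543, against a median of 813 over 877 other noncoding genes at the control level with a known position. A single exon was annotated for 26 of them (72.2%), against 56.3% of the others. A protein-coding gene overlapped 8 of them (22.2%, against 54.3% of the others), but in no case did an exon of the 1 overlap an exon of the other. Another 12 lay within 1 kb of a protein-coding gene without overlapping it (33.3%, against 17.9%). The median control level was 1.62 CPM, against 2.56 CPM. These differences were not tested, since a rule that asks for low counts in the mutants also bears on level and length.

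One pair lay back to back. CR45993 (minus strand, 2R from 16153263 to 16153811) and CR45994 (plus strand) are 95 bp apart inside an intron of lbk. CR45993 read 2.01, 2.02, 1.27, 1.05 and 0.401 CPM in controls 1 to 5 and 0.187, 0.150 and 0.247 CPM in the mutants. It kept 10 mutant counts, the most of the 36, where CR45994 had none. The host gene lbk, which encodes a membrane protein with immunoglobulin domains, read 62.8 ± 8.86 CPM in controls (SD, n = 5) and 71.0 ± 12.1 CPM in mutants (SD, n = 3), and was not called (log2 fold change 0.03 ± 0.14, edgeR, adjusted p = 0.918).

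Protein-coding neighbours, which the rule could not choose, were then compared. The nearest protein-coding gene on each side of each noncoding gene gave 68 genes, 62 of them tested. In the mutants 16 fell (25.8%), 5 rose (8.06%) and 41 were not called. Of all protein-coding genes tested, 9.83% fell and 6.75% rose, and of all genes tested, the 36 included, 10.7% and 6.58%. With library totals, 14 flanking genes fell and 10 rose, while of all 13506 genes tested 1040 fell and 1997 rose. Of 36 noncoding genes, 13 had a flanking gene that fell, 6 one that rose and 18 neither, with 1 gene counted in both of the first groups. On 2L, 10 of 31 flanking genes fell and 4 rose. Of the protein-coding genes tested on that arm, 13.1% fell and 8.69% rose (15.3% and 8.22% of all its genes tested, the noncoding ones included). Elsewhere 6 of 31 flanking genes fell and 1 rose, where 9.05% of protein-coding genes tested fell and 6.29% rose (9.57% and 6.19% of all genes). With every protein-coding gene within 20 kb counted, 34 of 158 fell (21.5%) and 9 rose.

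The flanking genes that fell were close to the noncoding genes. Within 1 kb, 9 of 16 fell (56.3%), and between 1 and 5 kb 7 of 18 (38.9%), whereas beyond 5 kb none of 28 fell and 5 rose. None within 5 kb rose. For the other noncoding genes at the control level, 15.3% of flanking genes within 1 kb fell (62 of 406), 10.6% between 1 and 5 kb (41 of 385) and 8.91% beyond 5 kb (46 of 516). Among flanking genes within 1 kb, 6 of 10 fell on 2L (20 of 95 for the other noncoding genes) and 3 of 6 elsewhere (42 of 311). The distances of 1 and 5 kb were chosen after the values were seen, and these shares are descriptions.

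**Figure D4:**
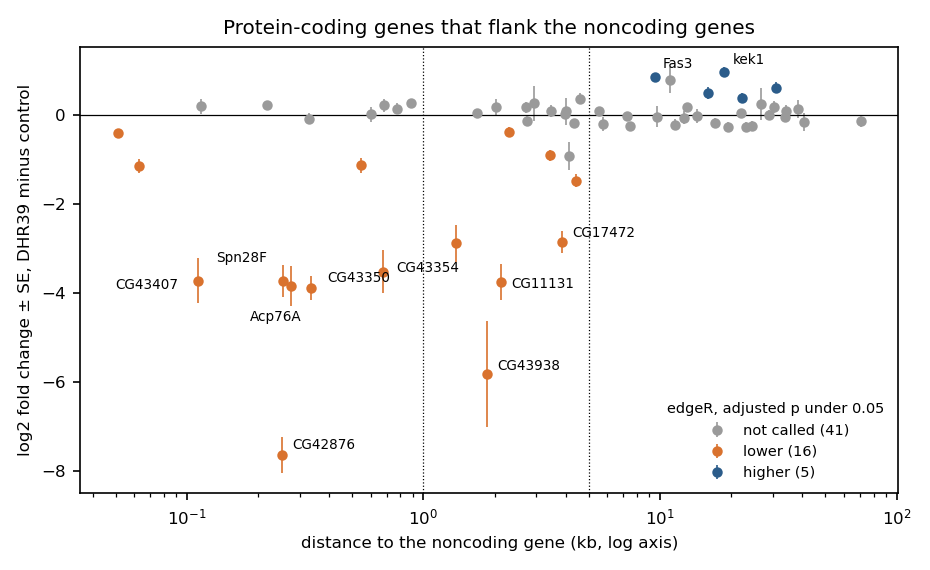
Log2 fold change ± SE (DHR39 minus control, edgeR) of the 62 tested protein-coding genes that flank the noncoding genes, against the distance to the nearest of them in kb on a log axis; dotted lines mark 1 and 5 kb. The 16 genes that fell all lie within 5 kb and the 5 that rose all lie beyond it.

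Of 3 flanking genes within 5 kb known as serpins, a family of serine protease inhibitors, 2 fell. Acp76A, an accessory gland protein of this family, lies 276 bp from CR44675 on the opposite strand of 3L. It read 124, 169, 485, 205 and 319 CPM in controls 1 to 5 and 25.8, 12.5 and 22.3 CPM in the mutants, which corresponds to -3.84 ± 0.45 on the log2 scale (edgeR, adjusted p = 0.000101). CR44675 itself read 0.977, 2.35, 2.08, 1.31 and 1.83 CPM in the controls and 0, 0.0502 and 0.124 CPM in the mutants. CG43407, 112 bp away on the other side of CR44675, fell from 2.37 ± 0.731 to 0.195 ± 0.161 CPM (log2 fold change -3.72 ± 0.50, edgeR, adjusted p = 0.000262). No control of Acp76A or CG43407 overlapped a mutant library. The same held for CR44675, for which the choice of genes makes it likely. Acp76A is also 1 of the accessory gland markers above. Without DHR39 replicate 1 the log2 fold change of CG43407 was -4.47.

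A second serpin, Spn28F, lies 255 bp from CR43262 on the opposite strand of 2L. It read 392, 536, 891, 600 and 681 CPM in controls 1 to 5 and 80.4, 25.8 and 49.3 CPM in the mutants (log2 fold change -3.73 ± 0.36, edgeR, adjusted p = 2.37e-05). Spn28F and CR43262 were both lowest in control 1 and highest in control 3, but not every named pair had its controls alike (below). On the other side of CR43262, at 51 bp, CG14277 fell by less, from 26.3 ± 1.27 to 21.7 ± 2.09 CPM (log2 fold change -0.42 ± 0.09, edgeR, adjusted p = 0.00847), a call lost with library totals (0.0666) and without DHR39 replicate 3 (0.0638). It is named as the other flank of the same gene. A further serpin gene within 5 kb, Spn47C, 4571 bp from CR45228 on 2R and named after its values were seen, was not lower. It read 107, 97.2, 87.1, 93.2 and 97.8 CPM in controls 1 to 5 and 167, 124 and 120 CPM in the mutants, so every mutant library was above every control. Its log2 fold change was 0.36 ± 0.11 and missed the threshold (edgeR, adjusted p = 0.0513), but it was called higher with DESeq2 size factors (0.0492), DESeq2 (0.0285), library totals (0.00763) and the replicate block (0.0290), and without DHR39 replicate 3 (0.0493) or control 1 (0.0379).

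The largest fall among flanking genes was that of CG42876, 252 bp from CR44602 on the same strand of 2L. It read 12.4, 11.2, 10.4, 11.8 and 12.5 CPM in controls 1 to 5 and 0.187, 0 and 0 CPM in the mutants (log2 fold change -7.63 ± 0.40, edgeR, adjusted p = 2.73e-07). The mutant level rests on 3 counts in DHR39 library 1; the ratio of control to DHR39 over summed counts and library totals was 203 (exact 95% binomial interval 69.3 to 987), and without that library the fitted value was -10.77. CR44602, with the longest exonic length of the 36, read 1.36, 3.00, 2.13, 2.30 and 1.26 CPM in the controls and 0 in every mutant library. CG42876 is 1 of the 9 protein-coding genes that met the limits used for the noncoding genes. Another of the 9, CG43938, lies 1852 bp from CR45945 on the same strand of 3L, and its controls read from 0.943 to 11.6 CPM (log2 fold change -5.82 ± 1.19, edgeR, adjusted p = 0.00514; -5.05 without control 3, -5.18 without DHR39 replicate 2 and -7.08 without DHR39 replicate 1). The strand setting of the read counting is unstated in the sources at hand, and reads that run on from a gene into its neighbour could not be told apart.

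The 6 other flanking genes with the smallest p that fell have only CG numbers, and 5 of them lie on 2L. CG17472, 3848 bp from CR43158, read 110, 144, 247, 157 and 196 CPM in controls 1 to 5 and 31.9, 21.2 and 25.6 CPM in the mutants (log2 fold change -2.85 ± 0.25, edgeR, adjusted p = 8.88e-06). Its controls stood in the same order as those of CR43158, from control 1 to control 3. Other named pairs differed in their controls. CG43350 was highest in control 3 (45.3 CPM), where CR44802 was lowest (0.865 CPM). CG42876 was highest in control 5 (12.5 CPM), where CR44602 was lowest (1.26 CPM). Acp76A was highest in control 3 and CR44675 in control 2. CG43350, 334 bp from CR44802, fell from 33.1 ± 8.79 to 2.47 ± 0.854 CPM, and CG43354, 678 bp from CR44695, from 4.81 ± 2.04 to 0.437 ± 0.275 CPM. CG11131 on 3L, 2125 bp from CR44688, fell from 6.99 ± 0.685 to 0.538 ± 0.497 CPM. Without DHR39 replicate 2 the log2 fold changes of CG11131 and CG43354 were -4.76 and -4.21, against -3.76 and -3.52 with all libraries. The falls of CG14072 and CG3841, at 4427 and 3432 bp, were smaller, with log2 fold changes of -1.48 ± 0.15 and -0.92 ± 0.12. The adjusted p of these last 5 genes ran from 1.84e-06 for CG43350 to 0.000332 for CG43354 (edgeR).

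The 5 flanking genes that rose all lay beyond 5 kb, with log2 fold changes from 0.38 to 0.95. Fas3, which encodes the cell adhesion protein fasciclin 3, lies 9496 bp from CR44695 and rose from 68.7 ± 5.13 to 137 ± 5.18 CPM (log2 fold change 0.85 ± 0.08, edgeR, adjusted p = 1.45e-05). The gene kek1, which encodes a leucine-rich repeat protein that restrains the epidermal growth factor receptor, lies 18730 bp from CR44971 and rose from 19.6 ± 1.161 to 41.7 ± 6.23 CPM (log2 fold change 0.95 ± 0.11, edgeR, adjusted p = 8.77e-05). The other risen genes were the transcription factor genes luna and nub, and CG18507, named after their values were seen, with log2 fold changes of 0.61, 0.48 and 0.38. The call of nub was lost without any 1 of the 3 DHR39 libraries (adjusted p = 0.0582, 0.124 and 0.0519) and without control 5 (0.0658), and that of CG18507 without DHR39 replicate 1 (0.0611) and replicate 3 (0.0749). The most abundant flanking genes were not called. Vha55, a subunit of the vacuolar proton pump, gave -0.18 ± 0.08, RpS26, a protein of the small ribosomal subunit, -0.03 ± 0.08, the RNA-binding protein gene sm 0.03 ± 0.09 and the growth regulator bun -0.25 ± 0.11 (edgeR, adjusted p from 0.130 to 0.863).

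Genes that overlap a noncoding gene were counted apart. Of 8 tested, 2 fell, 1 rose and 5 were not called. The gene ko, in whose intron CR45945 lies on the opposite strand, read 39.7 ± 2.54 CPM in controls and 31.8 ± 2.43 CPM in mutants (log2 fold change -0.47 ± 0.09, edgeR, adjusted p = 0.00493). The chloride channel gene pHCl-1, which holds CR44050, gave -0.29 ± 0.09 (edgeR, adjusted p = 0.0480), a call lost under 10 alternatives (adjusted p from 0.0517 to 0.302), among them leaving out any 1 library other than control 5, and dpr2, an immunoglobulin-domain gene of neurons that holds CR44492, gave 0.61 ± 0.19 (edgeR, adjusted p = 0.0438), lost without DHR39 replicate 1 or 2 or control 1, 3 or 5 (adjusted p from 0.0767 to 0.198). The Hox gene Scr with CR45905, beat-Ic with CR43826, CG31677 and CG15475 with CR44909, and lbk were not called, with log2 fold changes from 0.03 to 0.38. CR44050 read 0.597, 1.25, 3.00, 2.25 and 2.92 CPM in controls 1 to 5 and 0 in every mutant library. CR45905 read 2.28, 1.47, 1.15, 0.943 and 0.973 CPM in the controls and 0.0622, 0.150 and 0.124 CPM in the mutants. CR44492 and CR44909 had control means of 1.48 ± 0.248 and 1.06 ± 0.464 CPM (SD, n = 5) and 3 and 2 mutant counts.

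A lower share of library counts in noncoding genes as a class was not detected. Without the 36 genes, noncoding genes took 1.01%, 0.994%, 1.19%, 1.14% and 1.07% of counts in controls 1 to 5 and 1.17%, 1.09% and 1.19% in the mutants. The difference of 0.0675 percentage points was within the spread (two-sided exact permutation test over 56 divisions of the libraries, p = 0.286). Of 1359 other noncoding genes tested, 218 fell (16.04%) and 72 rose (5.30%), against 10.7% and 6.58% of all genes tested; the genes with the lowest mutant levels had been taken out of this set. On 2L, 83 of 320 fell (25.9%), and elsewhere 135 of 1039 (13.0%).

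Noncoding RNAs listed for a described function or class were not among the 36. Of 39 listed, 19 were in the table and tested, of which 3 fell and 3 rose, with a median log2 fold change of -0.01. Those that fell were sphinx, which acts in male courtship (from 3.21 ± 0.898 to 0.531 ± 0.0612 CPM, log2 fold change -2.71 ± 0.33, edgeR, adjusted p = 0.000119), noe (-0.59 ± 0.09, adjusted p = 0.00095) and lncRNA:TS14 (-1.26 ± 0.33, adjusted p = 0.0192). The call of lncRNA:TS14 was lost without DHR39 replicate 2 (adjusted p = 0.0552) and without DHR39 replicate 3 (0.0869). Those that rose were Uhg2, Uhg3 and Uhg5, hosts of small nucleolar RNAs that guide the modification of ribosomal RNA, with log2 fold changes of 0.74 ± 0.16, 0.79 ± 0.11 and 0.49 ± 0.11 (edgeR, adjusted p from 0.000269 to 0.00904). The dosage compensation RNAs roX1 and roX2, made from the X chromosome, gave -0.17 ± 0.08 and -0.01 ± 0.16, Uhg1 0.19 ± 0.17 and the heat shock RNA Hsromega 0.88 ± 0.51, and none of these was called; with replicate names as a block, Hsromega was called (edgeR, adjusted p = 0.0128). Hsromega read 187, 363 and 913 CPM in the mutants, and without DHR39 replicate 3 its log2 fold change was 0.04.

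In the opposite direction, 5 noncoding and 11 protein-coding genes were under 0.25 CPM in every control and at a mean of at least 1 CPM in the mutants. These counts cannot be set against the 36 and 9 above on equal terms, since the limit then applies to 5 libraries and not 3. Of the 5, 4 lie on 2R (CR44387, CR43948, CR44168 and CR44759) and 1, CR44077, on 2L. CR44387 had no count in any control and read 1.99, 1.05 and 2.04 CPM in the mutants, and CR44077, also at 0 in every control, read 1.31, 0.853 and 1.05 CPM. With a floor of 3 counts over the controls, they were at least 49.8- and 31.8-fold higher in the mutants.

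The authors' deposited tables also compare a second line, named E7818.37, with w1118, and both comparisons share the controls. In the authors' deposited table for DHR39, the log2 fold changes of the 36 genes ran from -3.80 to -0.56 with a median of -2.02. That table calls 11.8% of all its genes lower and 7.24% higher. Its values are smaller in size than those computed here: CR44971 was at -3.80 there and -6.24 by edgeR, and CR44726 at -0.56 and -4.85. Sizes are therefore not compared between the sources, and a small uncalled value in the authors' deposited tables does not show an unchanged level. In the authors' deposited table for E7818.37, 4 of the 36 were lower and 3 higher at an adjusted p under 0.05 (over all genes of that table, 1.83% lower and 1.64% higher), and 29 were not called, with values from -0.61 to 0.61. The 4 lower genes there were CR44534 (-3.63), CR45346 (-3.04), CR44971 (-1.14) and CR43158 (-1.12), and their values for DHR39 in the authors' deposited tables were -3.62, -2.89, -3.80 and -1.08. The 3 higher genes were CR44344 (1.39), CR45945 (0.99) and CR45097 (0.87), against -2.19, -1.74 and -1.48 for DHR39 in the authors' deposited tables. The median of the 36 for E7818.37 in the authors' deposited table was -0.11, beside -0.0011 over all genes.

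**Figure D5:**
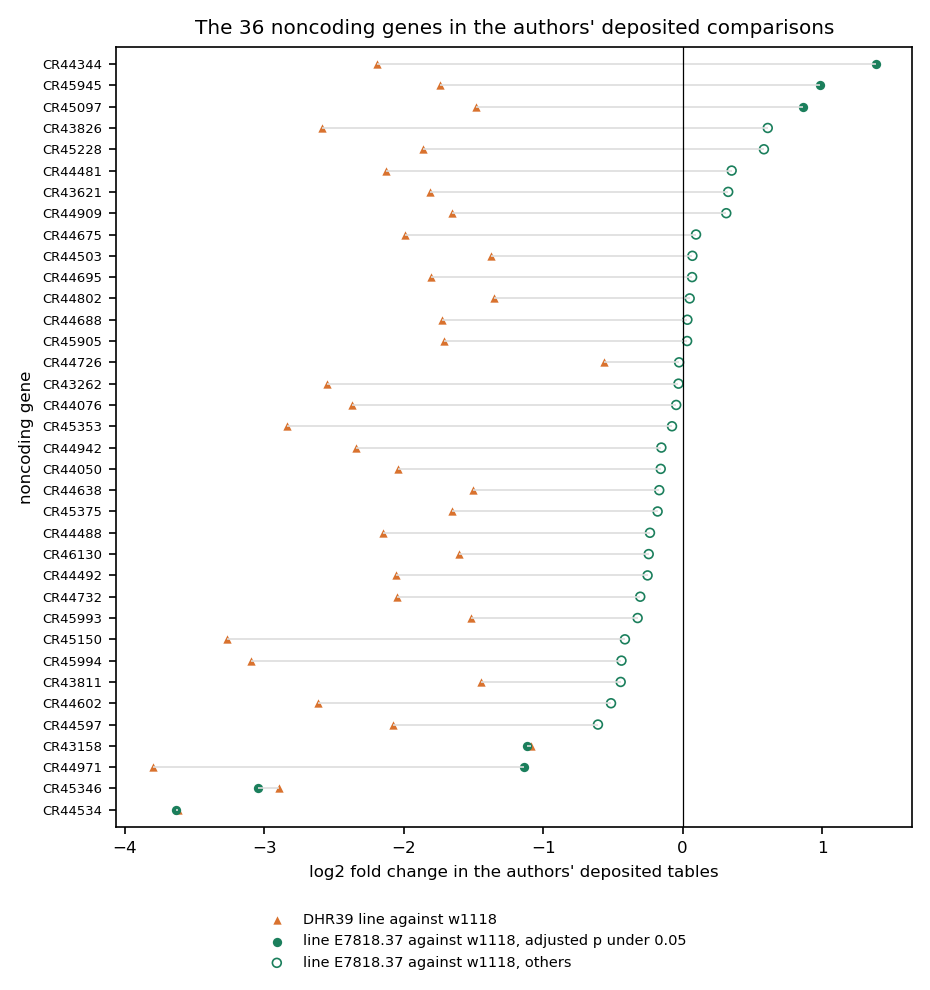
Log2 fold change of each of the 36 noncoding genes in the authors' deposited tables for the DHR39 line (triangles) and for line E7818.37 (circles, filled where the adjusted p is under 0.05), both against w1118 and with shared controls. The triangles run from -3.80 to -0.56, and 29 circles lie open between -0.61 and 0.61.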

How the data were processed

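Whole-fly RNA was selected for poly(A) and made into stranded paired-end libraries, per the labels' protocols. The submitters' processing notes name DESeq2 1.20.0 and 1.22.2, featureCounts 1.6.3, STAR 2.6.1b and cutadapt 1.16, with the builds BDGP6 and dm6. The authors deposited raw counts for each gene, from which CPM were computed here. In the comparison tables that the authors deposited, log2 fold changes and adjusted p-values were used as given. By its values, the sheet labelled as the DHR39 comparison holds that of E7818.37, since its calls match 506 of 506 entries of that line's set, and the table with the annotation matches all 2825 entries for DHR39. Their mean level differs by over 10 percent from that of these 8 libraries for 2636 genes, so they rest on further libraries that were not analysed here.

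Biotypes came from Ensembl 94 in the deposited files, and positions, in dm6 coordinates, from Ensembl 115, matched by gene identifier for 36 of 36 genes. No sequence was available here to print. How the counting treated strand is unstated in these sources, and overlapping genes may share reads.

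All genes were tested together in edgeR 4.0.16 (R 4.3.3), by its quasi-likelihood test, after filterByExpr and TMM scaling, two-sided, with Benjamini-Hochberg adjustment over 13506 genes and a threshold of 0.05. All 36 genes passed this filter, through the control libraries alone. SEs are the log2 fold change divided by the square root of F. Intervals are exact binomial ones at 95%. The procedure was tested on simulated data. Alternatives were other scalings, no filter, DESeq2 1.42.0, a replicate block, other limits and leaving out each library.

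The members and gene lists were chosen with earlier results of these data known. Named were the 10 genes with the highest control mean, those that overlap a named neighbour, lie within 50 kb of each other or are the 3 nearest each limit, the 12 called flanking genes with the smallest p, the 4 most abundant uncalled ones, and the called and 4 most abundant uncalled known noncoding RNAs.

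Replicates differed by more than sampling noise (chi-square over degrees of freedom, 17.1 to 43.1). By the replicate names of the deposited sample sheet, DHR39 libraries 1, 2 and 3 pair with controls 3, 4 and 5. Across genes, the deviations of paired libraries from their group means had correlations of 0.215, 0.108 and 0.183, each over 0.1. DHR39 library 1 with control 2, which share no name, reached 0.101. The names were taken to pair the libraries only in the alternative with a replicate block. The main fit held no term for the pairing, so the SEs, p-values and calls of that fit leave it out.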

Additional observations from a re-analysis of the deposited data

How the results depend on the processing

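How many noncoding genes counted as near absent depended on the limits. Of the 36, all were among 66 found at a control mean of at least 0.5 CPM (32 on 2L), 14 remained at 2 CPM (8 on 2L), 13 at under 0.1 CPM in the mutants (7 on 2L), and all were among 65 at under 0.5 CPM (34 on 2L). Asking every control for 1 CPM, an alternative added after seeing the data, left 15 (10 on 2L). With TMM-scaled library sizes the count was 40 (22 on 2L), and leaving out 1 library at a time gave 32 to 45.

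The number of genes called was 2333, and leaving out 1 library gave 1566 to 2340, the lowest without DHR39 replicate 3. Scaling by library totals moved the median of all genes by 0.14 on the log2 scale and turned the split from 1444 lower and 889 higher to 1040 lower and 1997 higher, of 3037 called. Flanking genes that fell numbered 14 to 18 over the alternatives that keep the nearest gene on each side; within 5 kb 14 to 17 fell, and beyond 5 kb 0 or 1. Those that rose numbered 4 to 6, and 10 with library totals. Within 5 kb, 3 flanking genes rose with library totals and at most 1 under the other alternatives. With the replicate block, 2580 genes were called in all, 18 flanking genes fell and Hsromega and Spn47C were called; no other named gene changed its call. Neighbours called in either direction, overlapping ones included, numbered 20 to 27 against 24, noncoding genes outside the 36 called 228 to 344 against 290, and known noncoding RNAs 5 to 7 against 6. The difference in the noncoding share stayed between 0.0383 and 0.0957 percentage points, with exact permutation p from 0.114 to 0.524. Depth limits the mutant levels: 18 of the 36 genes had 3 counts or fewer over all mutant libraries.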
